A study of Mus musculus with 8 samples.

Results

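The genes described here are those of the enamel matrix proteins and the enzymes that act on them, 8 genes taken by name and not by a threshold on their values. They are the matrix protein genes Amelx (amelogenin), Ambn (ameloblastin), Enam (enamelin), Amtn (amelotin) and Odam (odontogenic ameloblast-associated protein), the protease genes Mmp20 (enamelysin) and Klk4 (kallikrein-related peptidase 4), and Fam20a, which encodes a pseudokinase that assists the secretory pathway kinase Fam20c. Of the 8 genes, 6 had a named probe among the 16593 genes named on the array, with 9 probes in all, and all 6 were tested among 9085 tested genes. Amtn and Odam were matched to no probe by the platform annotation used here and were not analysed here beyond their promoters.

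Ameloblasts lay down enamel in successive stages. In the secretory stage they export amelogenin, ameloblastin and enamelin, which enamelysin cleaves as the crystals lengthen. In the maturation (Mat) stage the cells secrete Klk4, which degrades the remaining matrix, while ion transport across the enamel organ lets the crystals thicken, and amelotin and Odam are deposited between the ameloblasts and the enamel surface. Fam20a and Fam20c act together on secreted matrix proteins, which Fam20c phosphorylates. Inherited loss of AMELX, AMBN, ENAM, MMP20, KLK4 or FAM20A function causes amelogenesis imperfecta in humans.

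The arrays compared dental tissue from the Mat stage of the lower incisor of C57BL/6 mice aged 10 wk in 2 groups of 4 samples. Control (CON) mice were littermates carrying floxed Med1 alleles (fl/fl) and formed enamel at this site. Knockout (KO) mice carried the same floxed alleles with a Cre recombinase driven by the keratin 14 promoter, so Med1, a subunit of the Mediator coactivator complex, was removed from Krt14-expressing epithelia while mesenchyme, blood and muscle kept it, and the tissue taken was that which generated hairs in the place of the enamel organ. Each sample combined tissue of 3 mice. Total RNA was hybridized to 1-colour bead arrays, and levels below are log2 normalized intensities. Nothing in the labels says that the 4 samples of a group were pooled from different mice, so every p-value reflects just the scatter among these arrays, part or all of which could be technical.

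Between 11554 and 13134 probes were detected on each array, with mean signals of 550.8 to 811.9, the highest of them on the array of KO replicate 2. Med1 itself was between 8.06 and 8.58 in CON and between 7.30 and 7.67 in KO, 1.69-fold lower (adjusted p = 0.000746 in limma). In limma, 59.7% of 12838 tested probes passed an adjusted p of 0.05, 22.4% higher and 37.3% lower in KO, and on 54.6% the 2 groups did not overlap. The median log2 difference of tested probes was -0.14, and this broad shift is the background against which each gene below should be read. Under cyclic loess normalization 56.7% of the called probes were higher, compared with 37.5% under quantile normalization. Markers of other tissues and cell types also differed. The 4 markers of cornified epidermis detected on every array (Krt10, Lor, Cdsn and Krtdap) were higher in KO, and Krt1, tested only because it was detected in KO, was on no CON array and at least 1.40-fold higher. These markers had a summed log2 level of 15.82 to 15.86 in KO against 11.41 to 11.88 in CON, while Ivl and Flg2 were detected on no array. All 3 tested macrophage markers (14.33 to 14.49 against 10.66 to 10.75) and all 5 muscle markers (at least 14.63 against at most 13.11) were higher too, as were all 3 tested erythroid markers (at least 14.40 against at most 14.02) and 2 of 3 endothelium markers (10.37 to 10.69 against 9.87 to 10.15). The part of these tissues in the levels below was not tested. The summed level of 3 general epithelium genes was 15.48 to 15.56 in KO and 15.53 to 15.63 in CON. Krt14 (mean 15.15 in CON and 15.26 in KO) made up most of that sum. Krt5 was 1.98-fold lower and Cdh1 1.27-fold higher, so the sum does not measure the share of epithelium. In bulk tissue, fewer cells of a type and less RNA per cell cannot be told apart.

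The promoters are shown first because the comparisons below return to the matrix protein genes and the enzyme genes as separate sets. RefSeq (GRCm38.p6) gave a promoter for all 8 genes, and the 100 bases from 110 to 11 bases before each transcription start are printed 5′ to 3′ on the gene's strand. Capitals mark 2 motifs. The first is TGATTGG, the inverted form of the box recognized by the factor NF-Y, with its flanking bases. The second is the core of the box that places RNA polymerase II at many start sites, spelled TATAA. The windows of the 5 matrix protein genes were Amelx at chrX:169187220-169187319 on the minus strand, Ambn at chr5:88455881-88455980 on the plus strand, Enam at chr5:88487865-88487964 on the plus strand, Amtn at chr5:88375998-88376097 on the plus strand and Odam at chr5:87884900-87884999 on the plus strand.
Amelx: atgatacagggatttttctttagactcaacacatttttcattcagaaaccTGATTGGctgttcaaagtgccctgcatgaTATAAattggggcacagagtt
Ambn: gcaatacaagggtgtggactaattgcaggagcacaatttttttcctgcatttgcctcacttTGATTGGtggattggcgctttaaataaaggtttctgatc
Enam: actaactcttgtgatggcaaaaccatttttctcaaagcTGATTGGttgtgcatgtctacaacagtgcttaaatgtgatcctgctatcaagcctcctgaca
Amtn: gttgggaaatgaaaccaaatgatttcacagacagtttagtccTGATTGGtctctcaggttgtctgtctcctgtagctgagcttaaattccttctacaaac
Odam: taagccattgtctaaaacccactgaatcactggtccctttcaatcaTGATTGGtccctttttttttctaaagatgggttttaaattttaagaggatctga

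The windows of the proteases and of Fam20a were Mmp20 at chr9:7628121-7628220 on the plus strand, Klk4 at chr7:43881050-43881149 on the plus strand and Fam20a at chr11:109722249-109722348 on the minus strand, shown for comparison with the matrix protein genes.
Mmp20: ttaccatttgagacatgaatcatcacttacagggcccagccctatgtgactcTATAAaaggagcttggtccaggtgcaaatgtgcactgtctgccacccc
Klk4: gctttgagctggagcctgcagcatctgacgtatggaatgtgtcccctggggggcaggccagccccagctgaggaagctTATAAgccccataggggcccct
Fam20a: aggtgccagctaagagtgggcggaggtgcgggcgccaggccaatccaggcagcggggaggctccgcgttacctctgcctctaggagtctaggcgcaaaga

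TGATTGG began 60 bases before the start in Amelx, 49 in Ambn, 72 in Enam, 68 in Amtn and 64 in Odam, on the gene's own strand each time. It was in none of the 250 bases searched before the start of Mmp20, Klk4 or Fam20a, on either strand. The shorter ATTGG, which lies inside TGATTGG and is CCAAT read on the opposite strand, was in 33.8% of promoters, and Fam20a had 2 matches, the nearer one 71 bases before the start, while Mmp20 and Klk4 did not hold it. Of 32851 mouse promoters of the same length, 7.23% held the longer TGATTGG on either strand. On the gene's strand, 0.801% held TGATTGG between 49 and 72 bases before the start. TGATTGG was picked after the sequences of these 5 genes had been seen, so the shares describe it and test nothing. TATAA, found in 22.8% of promoters on either strand, began 31 bases before the start in Amelx, 32 in Klk4 and 58 in Mmp20, with further matches more than 110 bases out in Enam and Amtn. The 2 motifs did not overlap in these windows. The forkhead core TGTTTAC, in 3.17% of promoters, was in none of the 8. Fam20a had 10 CG dinucleotides in its 250 bases, above the median of 6 over all promoters, whereas the other members had 0 to 2. A match to these letters is not a binding site, and the absence of one says only that the letters are not in this window.

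The genes are spread over several chromosomes. Amtn, Ambn and Enam are consecutive protein-coding genes of chromosome 5, which also holds Odam, and Amelx is on the X chromosome. Klk4 sits among the kallikrein genes of chromosome 7 between Klk5 and Klk15, Mmp20 among matrix metalloproteinase genes of chromosome 9 between Mmp27 and Mmp7, and Fam20a on chromosome 11.

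The enamel matrix genes and proteases did not move together. Enam, Klk4 and Ambn were higher in KO by 2.20, 1.57 and 1.24-fold, Fam20a was 1.75-fold lower, and Amelx and Mmp20 did not pass the threshold. The 4 of 6 genes past the threshold stand beside 59.7% of all tested probes, the 3 higher genes beside 22.4% and the 1 lower gene beside 37.3%. In 5 of the 6 genes the groups did not overlap, beside 54.6% of all probes. With 6 genes, these shares are close enough to the background that the count as such is no result about enamel genes, and what follows concerns each gene and the differences among them. The median log2 difference of the 6 genes was 0.20.

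Amelx encodes amelogenin, the most abundant protein of forming enamel. Its log2 level in CON was 12.47, 12.48, 12.33 and 12.35, and in KO it was 11.78, 12.30, 12.32 and 12.21 (probe ILMN_2718293). The lowest CON array was just above the highest KO array, and KO replicate 1 stood well below the other KO arrays. The means were 12.41 ± 0.08 in CON and 12.15 ± 0.25 in KO (SD, n = 4 each), a log2 difference of -0.25 with a 95% interval of -0.52 to 0.01 and an adjusted p of 0.0932 in limma. Without KO replicate 1 the difference was -0.13, close to the median of all tested probes. Amelx was lower past the threshold under 4 of 23 alternatives, among them median scaling (-0.44, adjusted p = 0.0111). Before normalization the groups overlapped, at 5356 to 5868 intensity units in CON and 3424 to 6603 in KO.

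Since mouse Amelx is X-linked, the sex-linked genes are given beside it. Xist, transcribed from the inactive X chromosome of females, was 1.38-fold higher in KO (adjusted p = 0.0260 in limma), and the Y-linked genes Eif2s3y and Kdm5d were 1.93 and 2.05-fold lower (adjusted p = 0.00714 and 0.000156). For none of the 3 did the groups overlap. The labels do not give the sex of the mice. A difference in sex between the groups could not be told apart from genotype, for Amelx or any other gene. The part of these values in the level of Amelx and of the other genes was not tested.

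Ambn encodes ameloblastin, which is secreted with amelogenin and holds ameloblasts to the matrix. Its log2 level was 14.60, 14.75, 14.67 and 14.62 in CON and 15.02, 14.81, 15.02 and 15.04 in KO (probe ILMN_1240933). Every KO array was above every CON array, with KO replicate 2 the closest to CON. The means of 14.66 ± 0.07 and 14.97 ± 0.11 (SD, n = 4 each) differed by 0.31 on the log2 scale (95% interval 0.14 to 0.48, adjusted p = 0.00574 in limma).

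Ambn was among the brightest probes of every array. Its raw signal was 25596 to 28167 units in CON, 61.6 to 66.2% of the brightest signal on the same array, and 29891 to 32822 units in KO, 74.5 to 83.2%. Only 18 to 25 probes were brighter on the CON arrays and 5 to 15 on the KO arrays. The raw groups did not overlap either. The size of the difference depended on the scaling, however: it was 0.06 under median scaling (adjusted p = 0.713) and 0.27 under cyclic loess (adjusted p = 0.0740), against 0.31 under quantile normalization. KO replicates 1 and 3 have the same normalized level because 6 probes were brighter than Ambn on each of them.

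**Figure D1:**
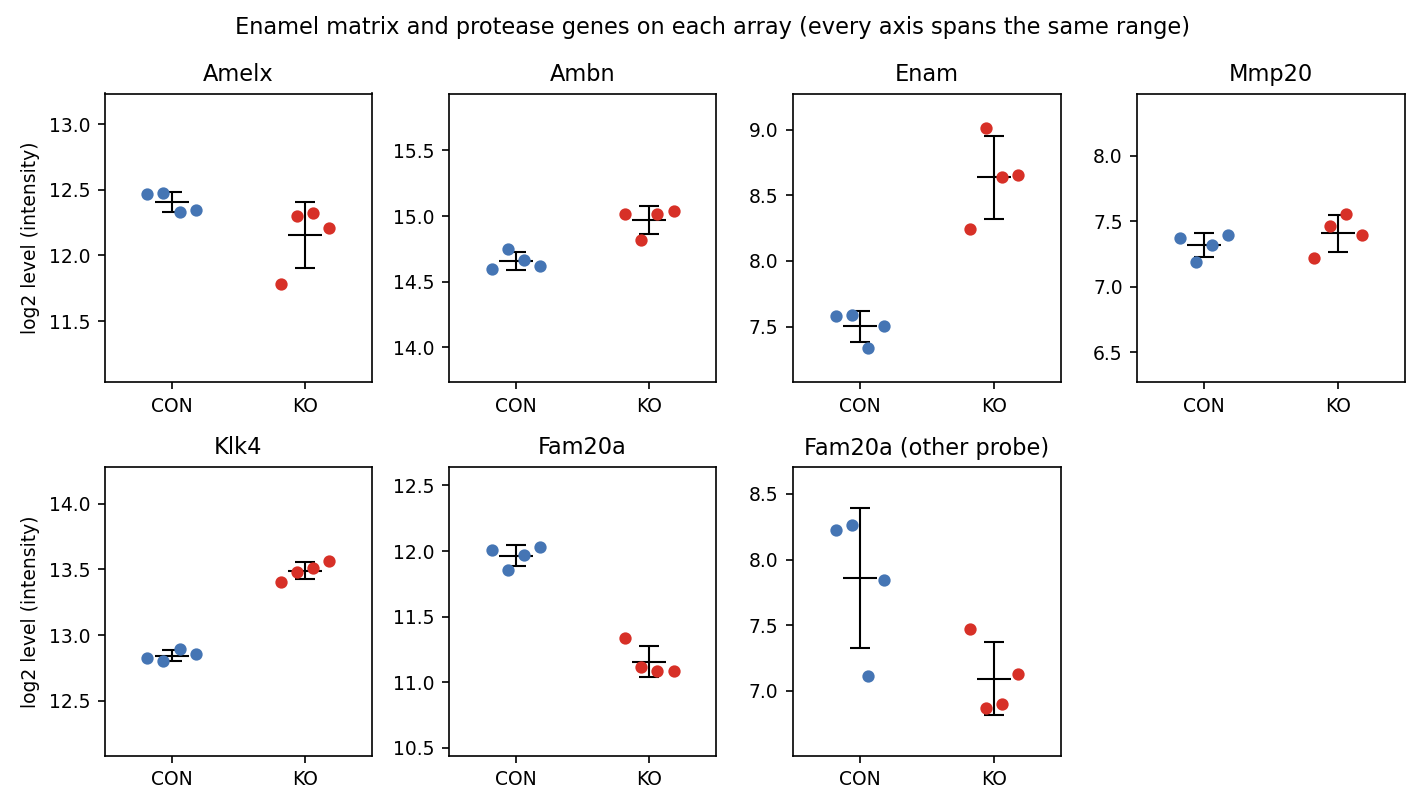
Log2 normalized intensity of each tested probe on the 4 CON (blue) and 4 KO (red) arrays, with bars at the mean and SD; every panel spans the same range. Enam, Klk4 and Ambn lie higher in KO, Fam20a lies lower on its main probe, Mmp20 overlaps, and the KO array at 11.78 stands below the other arrays of Amelx.

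Enam encodes enamelin, the largest and least abundant of the classical enamel matrix proteins. Its log2 level was 7.58, 7.59, 7.34 and 7.50 in CON and 8.24, 9.02, 8.64 and 8.66 in KO (probe ILMN_2799517). All KO arrays were clearly above all CON arrays, and the KO arrays were more widely spread. The difference between 7.50 ± 0.12 and 8.64 ± 0.32 (SD, n = 4 each) was 1.14 on the log2 scale (95% interval 0.82 to 1.46, adjusted p = 8.6e-05 in limma), the largest rise among the 6 genes. It was between 0.82 and 1.34 under the 23 alternatives and past the threshold in each.

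The other 2 Enam probes were too dim to test. The first was detected on no CON array and on 2 of 4 KO arrays (KO replicates 2 and 4), with log2 levels of 4.53 to 5.01 in CON and 4.80 to 6.03 in KO, which overlap. The second was detected on no array. The rise of Enam therefore rests on 1 probe, whose raw signal was 260.7 to 304.6 units in CON and 393.4 to 835.4 units in KO, highest on the array with the highest mean signal.

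Mmp20 encodes enamelysin, the metalloproteinase that processes amelogenin, ameloblastin and enamelin as they are secreted. Its log2 level was 7.37, 7.19, 7.32 and 7.39 in CON and 7.22, 7.46, 7.56 and 7.39 in KO (probe ILMN_1251385). The groups overlapped, with the lowest KO array near the lowest CON array. The difference between 7.32 ± 0.09 and 7.41 ± 0.14 (SD, n = 4 each) was 0.09 (95% interval -0.11 to 0.29, adjusted p = 0.406 in limma). Under cyclic loess, which moved the median of all tested probes from -0.14 to 0.02, Mmp20 was higher in KO by 0.32 (adjusted p = 0.0130).

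Klk4 encodes the serine protease that clears the matrix in the Mat stage. Its log2 level was 12.82, 12.80, 12.89 and 12.85 in CON and 13.40, 13.48, 13.51 and 13.56 in KO (probe ILMN_2858200). The groups were far apart relative to their spread, and no KO array was near any CON array. The means of 12.84 ± 0.04 and 13.49 ± 0.07 (SD, n = 4 each) differed by 0.65 on the log2 scale (95% interval 0.50 to 0.80, adjusted p = 1.9e-05 in limma). The raw signal was 6860 to 8139 units in CON and 10375 to 14481 units in KO. Across the alternatives the difference was 0.51 to 0.74 and past the threshold each time.

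Fam20a was the 1 gene of the 6 that fell. Its log2 level was 12.01, 11.86, 11.97 and 12.03 in CON and 11.33, 11.12, 11.08 and 11.09 in KO (probe ILMN_2840430). All KO arrays were below all CON arrays, with KO replicate 1 the highest of the KO arrays. The difference between 11.97 ± 0.08 and 11.16 ± 0.12 (SD, n = 4 each) was -0.81 (95% interval -0.99 to -0.63, adjusted p = 1.7e-05 in limma), and it was -0.97 to -0.72 under the alternatives, past the threshold in each. A second, dimmer probe of Fam20a gave 8.22, 8.27, 7.11 and 7.84 in CON and 7.47, 6.87, 6.90 and 7.13 in KO. CON replicate 3 was within the KO range on that probe, but the difference of -0.77 (SE 0.24, adjusted p = 0.0203 in limma) had nearly the size of that on the main probe.

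**Figure D2:**
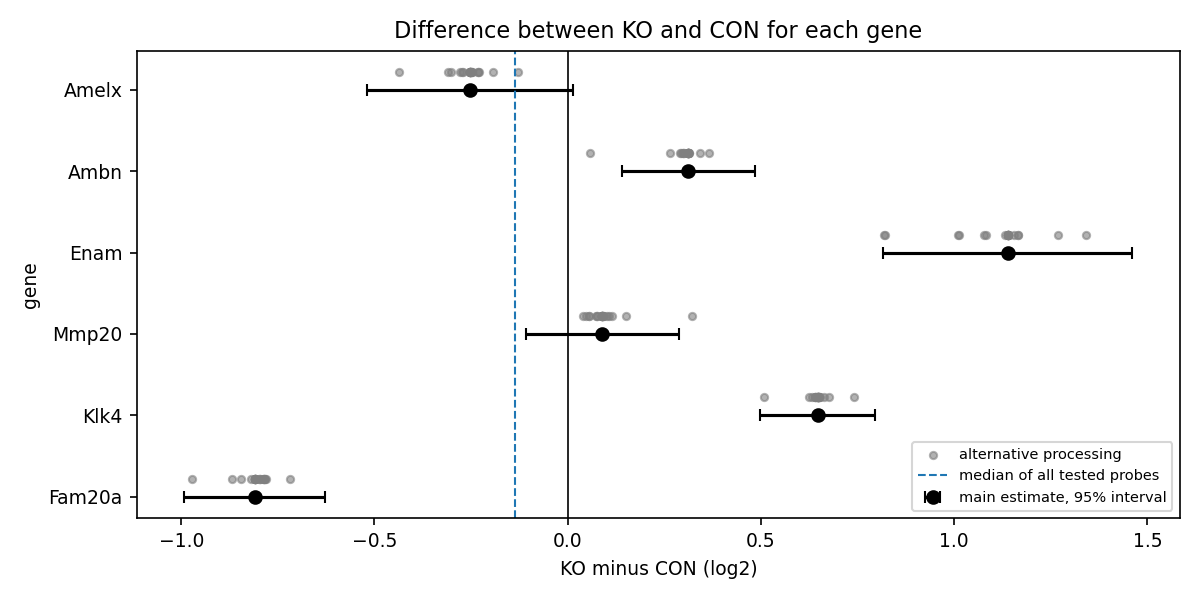
Log2 difference between KO and CON for each gene, with the main estimate and its 95% interval (black), the estimate under each alternative processing (grey) and the median of all tested probes (dashed, -0.14). Enam, Klk4 and Fam20a keep their side of 0 by a wide margin, whereas the interval of Amelx reaches 0.01 and an alternative puts Ambn at 0.06.

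Relative to the median of all tested probes, the log2 differences were 1.28 for Enam, 0.78 for Klk4, 0.45 for Ambn, 0.23 for Mmp20, -0.12 for Amelx and -0.67 for Fam20a. Median scaling, which placed the median probe at -0.22, gave relative differences of 1.30, 0.73, 0.28, 0.30, -0.22 and -0.75 in the same order of genes. Cyclic loess gave 1.32, 0.72, 0.25, 0.31, -0.21 and -0.74. The order of Enam, Klk4 and Fam20a was kept by all 3 scalings, while Ambn and Mmp20 exchanged places.

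Whether the genes changed unequally was asked within each array, by the difference between the log2 levels of a pair of genes, which a factor common to the array cannot alter. Of 15 pairs, 13 changed unequally and without overlap between the groups (exact two-sided permutation test, p = 0.02857, the smallest that 70 assignments of the arrays allow, adjusted p = 0.03297 over the 15 pairs). The exceptions were Ambn and Mmp20, with an unequal change of 0.22 (SE 0.13, exact p = 0.1143, and -0.06 to 0.26 under the alternatives), and Amelx and Fam20a, with 0.56 (SE 0.20, exact p = 0.08571). How often pairs of other genes change unequally was not computed. Of all tested single probes, 59.7% were called, in both directions, and 54.6% did not overlap, so the count of pairs is no result about enamel genes. The 13 pairs share 1 smallest p, so whether a pair passes after adjustment depends on how many others separate. All pairs are drawn from the same 6 genes and are not independent. Of the 13 pairs, 8 passed the threshold under all 6 alternatives and with any 1 array left out. Leaving out an array cannot create overlap, so the 13 pairs stay without it by construction. With groups of unequal size, however, the exact test can miss the threshold even without overlap. Counts with arrays left out therefore do not measure how far a pair depends on single arrays.

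Among the matrix protein genes, Enam rose relative to Amelx by 1.39 on the log2 scale (SE 0.09), in 4 of 4 KO arrays compared with every CON array, and this was 1 of the 8 pairs. Enam also rose relative to Ambn by 0.83 (SE 0.21), past the threshold under all 6 alternatives. It was past it with 4 of 8 single arrays left out, a count with the limit given above. Ambn rose relative to Amelx by 0.56 (SE 0.16), which was past the threshold under 4 of 6 alternatives, median scaling and cyclic loess being the exceptions, and with 4 of 8 single arrays left out. The 3 genes share TGATTGG upstream at similar distances, as printed above, and their own log2 differences were -0.25, 0.31 and 1.14 for Amelx, Ambn and Enam.

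Between the proteases, Klk4 rose relative to Mmp20 by 0.56 (SE 0.07), again 1 of the 8 pairs. Klk4, the protease of the Mat stage, also rose relative to Amelx by 0.90 (SE 0.12) and to Ambn by 0.33 (SE 0.07), whereas Mmp20, the protease of the secretory stage, rose by 0.34 (SE 0.10) relative to Amelx and trailed Enam by 1.05 (SE 0.14). Enam and Klk4, the 2 genes with the clearest rise, differed by 0.49 (SE 0.16). This was 0.18 to 0.60 under the alternatives, past the threshold under 3 of 6 and with 4 of 8 single arrays left out. Fam20a fell relative to Enam by 1.95 (SE 0.22), to Klk4 by 1.46 (SE 0.10), to Ambn by 1.12 (SE 0.10) and to Mmp20 by 0.90 (SE 0.13).

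**Figure D3:**
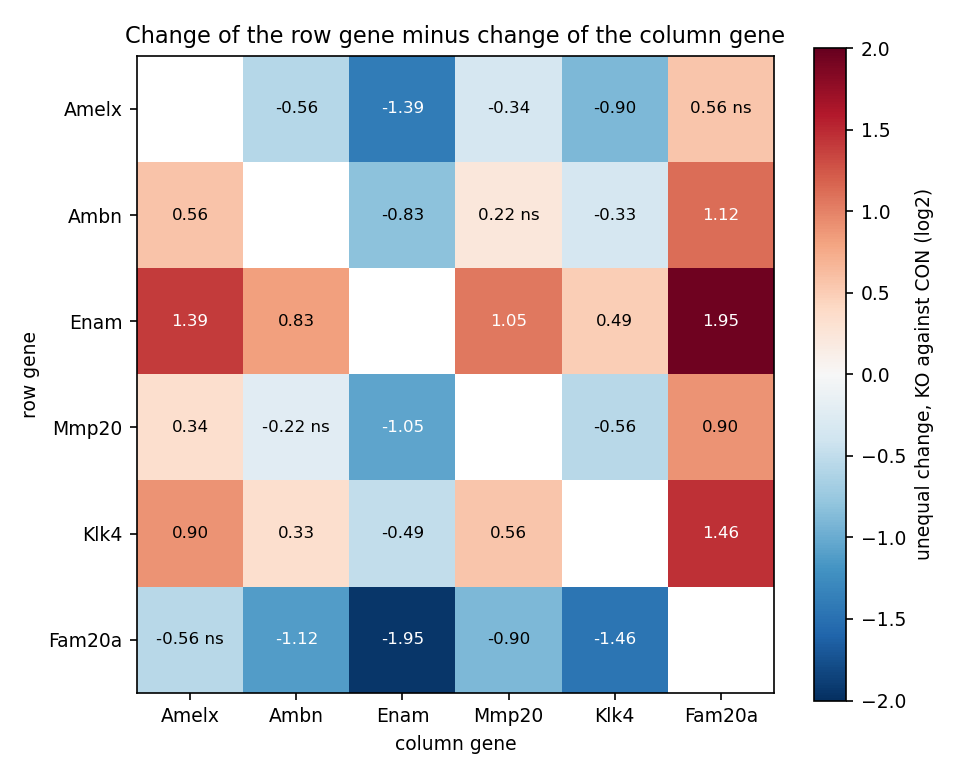
Unequal change of each pair of genes on the log2 scale, the change of the row gene minus that of the column gene between KO and CON (red, the row gene rose relative to the column gene; ns, adjusted p of 0.05 or more in the exact permutation test). The row of Enam is positive throughout, up to 1.95 against Fam20a, and the row of Fam20a is negative throughout.

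Klk4 belongs to a family of tandem protease genes, of which 7 others were tested. Of these, 4 were detected on all 8 arrays, and 3 of the 4 rose (Klk8, Klk10 and Klk11) while Klk1 fell, beside 22.4% of all probes higher and 37.3% lower. Their median log2 difference was 4.16, beside -0.12 over all tested genes. Klk8 and Klk11, which are proteases of cornifying skin, were 19.6 and 16.2-fold higher in KO. The other 3 were tested only because they were detected in KO, so they are given as bounds against the detection floor. Klk14, detected on 1 of 4 CON arrays, was at least 21.9-fold higher, Klk13, detected on 2, at least 23.4-fold and Klk7, detected on 1, at least 11.6-fold. Klk4 rose by 3.65, 3.78 and 3.37 log2 units less than Klk8, Klk10 and Klk11 and by 2.88 more than Klk1. All 4 of these differences had the smallest exact permutation p of 0.02857 (adjusted p = 0.04156 over 16 comparisons within the 3 families, made with relatives detected on all 8 arrays and added after the values had been seen). The share of other gene pairs that change unequally was not computed, so counts within the families are no result in themselves. The neighbours of Klk4, Klk5 and Klk15, were detected on no array. Whether the Klk4 probe also captured transcripts of related kallikreins was not tested.

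Some relatives of Mmp20 moved far more than it did, and others did not. Of 10 other matrix metalloproteinase genes detected on all 8 arrays, 4 were higher, 2 lower and 4 not past the threshold, beside 22.4% of all probes higher and 37.3% lower, with a median log2 difference of 0.16. Mmp12 (macrophage elastase) was 10.7-fold higher and Mmp9 (gelatinase B) 5.87-fold. Another 2 genes were not detected on every CON array, Mmp3 (stromelysin 1), detected on 1 and at least 14.7-fold higher, and Mmp10 (stromelysin 2), detected on 3 and at least 6.50-fold higher. The 2 genes that fell, named because they were few, were Mmp11 (1.48-fold) and Mmp23 (1.31-fold). Mmp20 changed unequally with 5 of the 10 (exact permutation test, adjusted p = 0.04156 each), trailing Mmp12, Mmp9 and Mmp13 by 3.32, 2.46 and 0.82 log2 units and exceeding Mmp11 and Mmp23 by 0.66 and 0.47. With the other 5, among them Mmp14, the unequal change did not pass the threshold. The count of 5 of 10 likewise has no share of other gene pairs beside it. Macrophage markers, which moved with Mmp12 and Mmp9, are given above, and their part in these values was not tested.

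**Figure D4:**
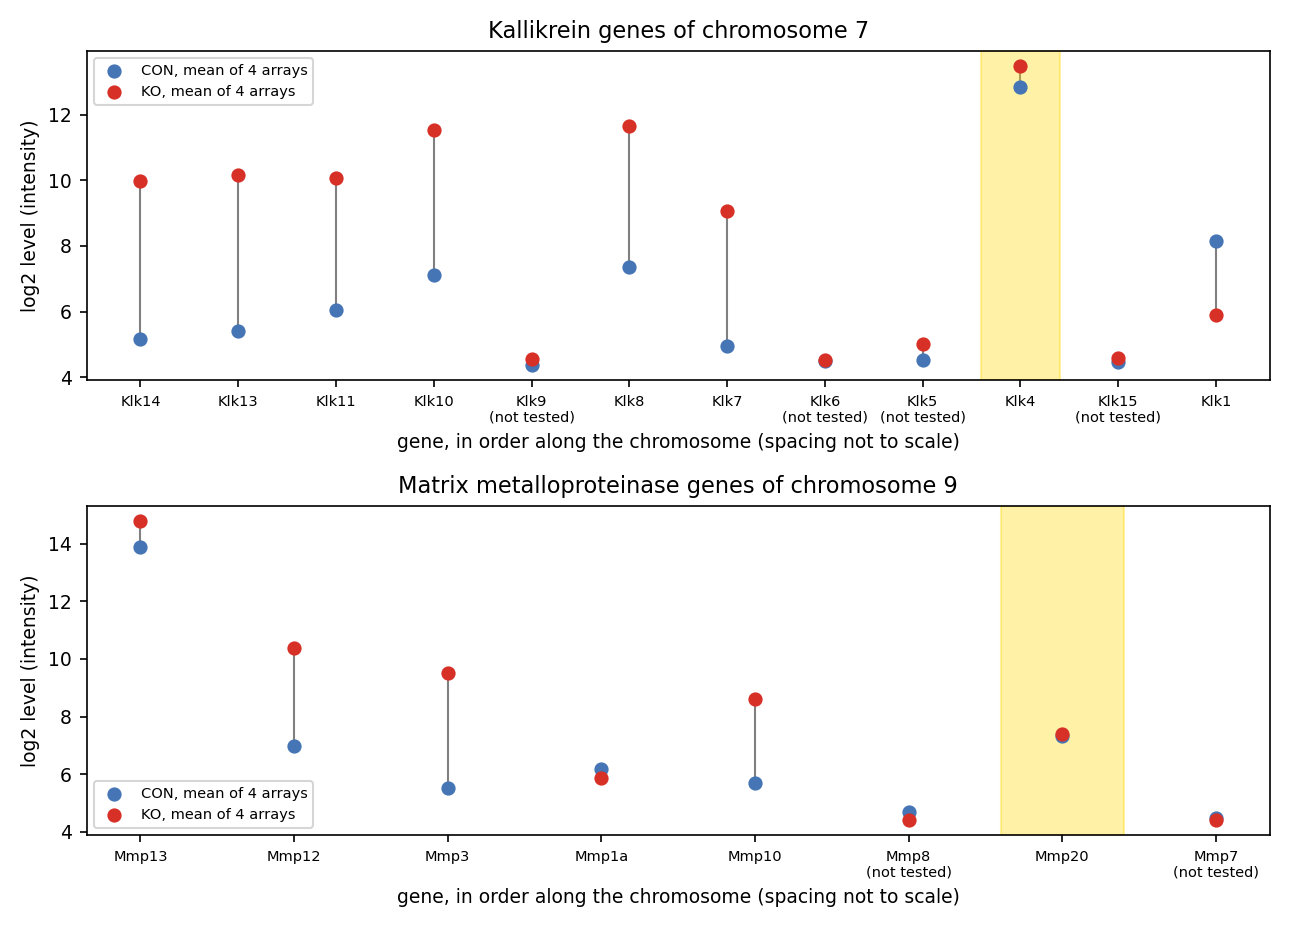
Mean log2 level in CON (blue) and KO (red), 4 arrays each, of the kallikrein genes of chromosome 7 and the matrix metalloproteinase genes of chromosome 9, in gene order with the enamel protease shaded; levels of different genes are not comparable, only the length of each grey line. The line of Klk4 (0.65) is short beside those of Klk8, Klk10 and Klk11 (4.02 to 4.43), and that of Mmp20 (0.09) is short beside that of Mmp12 (3.41).

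In the Fam20 family, Fam20a was the 1 of 3 genes that fell, although 2 of the 3 were lower past the threshold under median scaling. Fam20c, the kinase that Fam20a assists, was 8.71 ± 0.07 in CON and 8.54 ± 0.09 in KO, a log2 difference of -0.17 (SE 0.07, adjusted p = 0.0679), and Fam20b, a xylose kinase of proteoglycan synthesis, differed by -0.15 (SE 0.10, adjusted p = 0.238, limma). Both are near the median of all tested probes. Relative to Fam20c and to Fam20b, Fam20a fell by 0.64 and by 0.66 on the log2 scale (exact permutation p = 0.02857 each, adjusted p = 0.04156 over the same 16 comparisons).

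Ion transport genes, which work with the matrix proteases in enamel maturation, were mostly lower. Of 12 tested genes of ion transport in enamel maturation, 10 were lower in KO, none was higher and 2 were not past the threshold, with a median log2 difference of -0.48, beside 37.3% of all probes lower. The count lower was 6 under cyclic loess and 6 under the methods' t-test. Slc5a8 (a sodium-coupled monocarboxylate transporter) was 13.1-fold lower, the anion exchangers Slc26a4 (pendrin) and Slc26a7 were 3.92 and 3.42-fold lower, and the chloride channel gene Cftr was 2.96-fold lower. Klk4, which is secreted in the same stage, was higher in tissue where 10 of these 12 genes were lower.

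Of 16 other tested genes with inherited enamel defects, 10 were lower, 1 was higher and 5 were not past the threshold (median log2 difference -0.27), beside 37.3% of all probes lower and 22.4% higher. The count lower was 7 under cyclic loess and 3 under the methods' t-test with its 1.5-fold minimum. Slc13a5 (a citrate transporter, detected on 3 of 4 KO arrays), Sp6 (epiprofin, a transcription factor of ameloblast differentiation), Rogdi and Col17a1 (a hemidesmosome collagen) were lower by 2.15, 1.70, 1.65 and 1.43-fold. The 1 gene that rose, named because it was the only one, was Itgb6, an integrin subunit of ameloblasts, by 1.52-fold. Among 9 tested regulators of ameloblast genes, 5 were lower and 1 higher (median -0.46), beside 37.3% of all probes lower and 22.4% higher. In total this was close to the 59.7% of all probes called. Foxo1, a forkhead factor, was 3.61-fold lower, Msx2 1.83-fold and Runx1 1.54-fold, and Cebpa, an activator of the Amelx promoter in mouse cells, was the 1 that rose (1.46-fold, named after its value was seen). Sp6 and Dlx3, the latter named because of the overlap, are in both lists and are counted as lower in each.

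**Figure D5:**
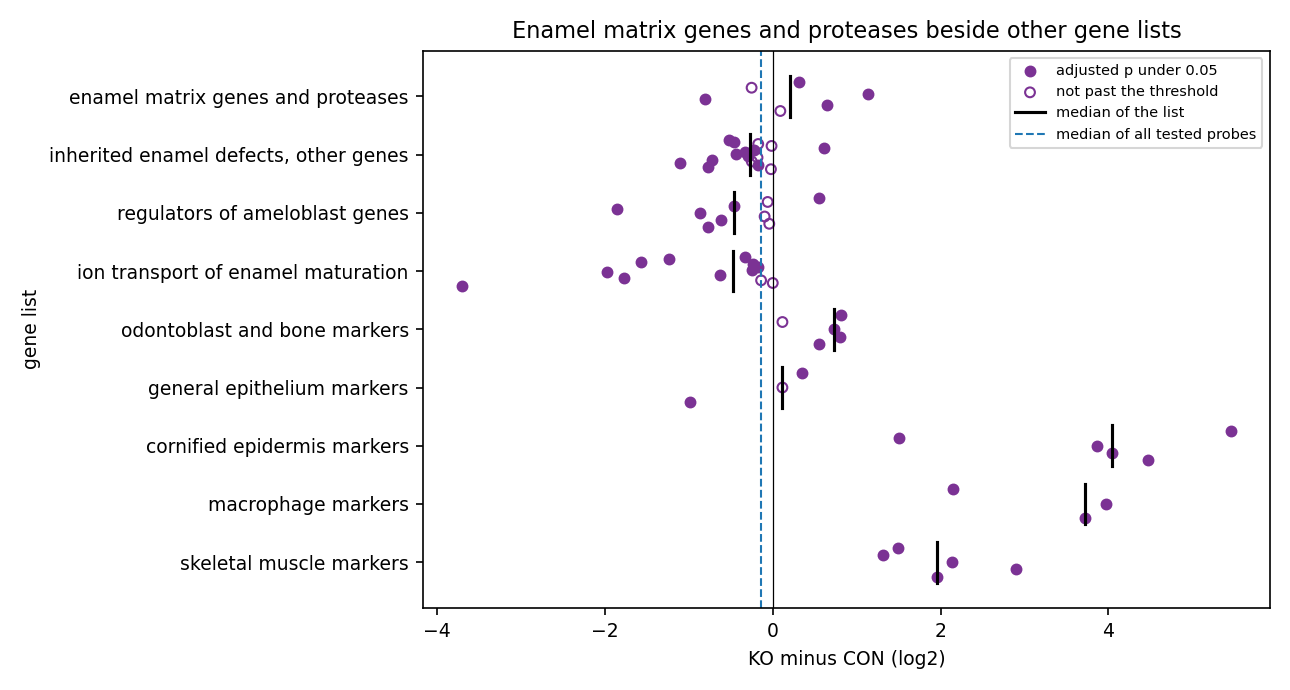
Log2 difference between KO and CON of each tested gene (filled, adjusted p under 0.05; open, not past it) in the enamel matrix and protease genes and in 8 other gene lists, with each list's median (black bar) and the median of all tested probes (dashed, -0.14). The 6 enamel matrix and protease genes spread from -0.81 to 1.14, the ion transport genes lie at or below 0, and the epidermis, macrophage and muscle markers lie above 1.

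Genes of mineralized matrix outside enamel were examined because bone and odontoblasts border the dissected tissue. The defining odontoblast gene Dspp and the osteocyte and odontoblast gene Dmp1 were detected on no array. Of 5 tested odontoblast and bone markers, 4 were higher in KO and none lower, beside 22.4% of all probes higher, with a summed log2 level of 14.85 to 15.03 against 14.40 to 14.50 in CON. Bglap (osteocalcin), Ibsp (bone sialoprotein), Col1a2 and Mepe were 1.75, 1.74, 1.65 and 1.46-fold higher, Mepe being detected on 3 of 4 CON arrays. The summed level of the 6 enamel matrix and protease genes was 15.56 to 15.70 in KO and 15.37 to 15.44 in CON. Ambn, the size of whose difference depended on the scaling, made up most of that sum. The part of adjoining mineralized tissue in the levels of Ambn, Enam and Klk4 was not tested. Sparcl1, a matricellular relative of the mineralized matrix genes, fell 2.25-fold.

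The general epithelium genes differed among themselves. Krt14, whose promoter drove the Cre, was 15.15 ± 0.03 in CON and 15.26 ± 0.03 in KO (log2 difference 0.11, adjusted p = 0.135), Krt5 was 1.98-fold lower (adjusted p = 6.9e-06) and Cdh1 (E-cadherin) was 1.27-fold higher (adjusted p = 0.00396, limma). Krt14 sits between Mmp20 and Ambn in its log2 difference, and Krt5 below Fam20a.

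The genes most like each member over the 8 arrays were sought among 9084 genes by the root mean square distance between centred log2 profiles. Enam was nearest to Irak3 (0.09), Sdr42e1 (0.11) and Cd55 (0.11), and Klk4 to Lbr, Il17rc and Adam15 (0.05 each). Fam20a was nearest to Col26a1, Cmtm8 (0.05 each) and Cobll1 (0.06). Ambn was nearest to Igfbp7, Ssr4 and Rps10 (0.06 each), Amelx to Churc1, Pan2 and F11r (0.07 each) and Mmp20 to Camta2 (0.05), Ipmk and Gtf2h3 (0.06 each). No enamel matrix or protease gene was among the 3 nearest of another. With 8 arrays in 2 groups these distances follow mainly the size of the difference between KO and CON.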

How the data were processed

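Tissue of the Mat stage was profiled on 8 Illumina MouseRef-8 v2 arrays, 4 CON and 4 KO. The authors deposited a raw intensity and a detection p-value per probe for each array, and a table of normalized intensity made in GenomeStudio (named in the submitters' processing notes; version not given in the sources used here), which was used as an alternative only. Of 25697 probes, 23978 had 1 gene symbol in the platform annotation and 1719 had none.

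The deposited intensities were corrected for background from the detection p-values, given an offset of 16, quantile normalized and put on the log2 scale with neqc of limma 3.58.1 (R 4.3.3). Probes with a detection p under 0.01 on at least 4 arrays were fitted with lmFit and eBayes, with KO against CON and no covariate, and p-values were adjusted by Benjamini-Hochberg over all 12838 tested probes. A gene was represented by its tested probe with the highest mean, and other probes of the members are given where they differ. Intervals are 95% intervals from the moderated standard error. The number of arrays, not read depth, limits the precision. Pairs of genes were compared by an exact two-sided permutation test of within-array differences. Both tests were tested on simulated data.

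The members and lists were chosen with earlier results of these data known. Named genes were all members with all probes, Med1, up to 4 genes per list by the size of moderated t among those past the threshold, all genes of lists of 5 or fewer, and the 3 nearest profiles of each member. Alternatives covered the normalization, background correction, offset, filters, variance model, array weights, a replicate block, each array left out, and the methods' t-test (p under 0.005 and 1.5-fold). Figures used matplotlib.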

Additional observations from a re-analysis of the deposited data

Results flagged for a closer look

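In each group of 4 arrays, the member probes and the genes named by rule were searched for an array set apart from the other 3 (a gap to the nearest array, as a share of the group's range, above Dixon's critical value for 4 samples). This singled out 11 of 116 groups, and chance alone singles out about 1 in 20. Among the enamel genes, the log2 level of Ambn in KO replicate 2 was 14.81 where the other KO arrays were at 15.02 to 15.04, and without that array the difference from CON was 0.36 in place of 0.31. Fam20a in KO replicate 1 was at 11.33 where the others were at 11.08 to 11.12, and without it the difference was -0.87 in place of -0.81.

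The other log2 levels set apart were those of Rogdi (8.19 in KO replicate 3), Mmp3 (6.00 in CON replicate 4), Mmp10 (4.89 in CON replicate 1), Sparcl1 (6.75 in KO replicate 1), Krt10 (14.62 in KO replicate 2), Cdsn (12.75 in KO replicate 3), Krt14 (15.30 in KO replicate 1), Cdh1 (10.66 in CON replicate 3) and the Y-linked Eif2s3y (8.24 in CON replicate 2). In KO the other arrays of Krt10 were tied at 14.65, and those of Krt14 at 15.25. Any gap from tied arrays is the whole range, so the flags of Krt10 and Krt14 say little.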

How the results depend on the processing

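The number of the 6 genes past the threshold was 3 to 5 over 23 alternatives, and no gene changed direction. Enam, Klk4 and Fam20a passed under all 23. Ambn did not pass under median scaling, cyclic loess or the methods' t-test with its 1.5-fold minimum. Amelx passed under median scaling, trend and robust variance, the deposited normalized values (-0.25, adjusted p = 0.0366) and no background correction, and Mmp20 under cyclic loess. Over all probes, the methods' t-test at its unadjusted threshold called 3268 (1733 higher and 1535 lower) in place of 7665, and 7188 after Benjamini-Hochberg adjustment. The 1.5-fold minimum removes Ambn (1.24-fold) by construction, and the cause of the other changes was not tested. Among the lists, requiring detection on all 8 arrays left 3 kallikreins higher in place of 6, since the other 3 were not detected on every CON array. The 1.5-fold minimum of the methods' t-test left 3 other enamel defect genes and 6 ion transport genes lower in place of 10 each. Cyclic loess called 3731 probes higher and 2850 lower, compared with 2878 and 4787. Leaving out each array in turn gave 7065 to 7376 probes, 4 of the 6 genes each time, and 9 to 13 unequal pairs. The count of pairs is limited by the exact test with groups of unequal size, as said above. With the replicate number as a block, 7390 probes and 4 of the 6 genes passed (replicate block). Arrays of the same number showed no shared deviation (correlations of -0.01 to 0.02). A small shared effect could go unseen here, so this does not exclude that the samples were paired. Dim probes limit Enam most, since 2 of its 3 probes could not be tested.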
